A study of Homo sapiens with 6 samples.

Results

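TTC5, SCAPER and the CCR4-NOT deadenylase complex are the protein machinery that degrades alpha and beta tubulin mRNA, and their own mRNAs are described here in hTERT RPE1 cells with and without a microtubule-depolymerizing drug. The 10 genes, TTC5, SCAPER, CNOT1, CNOT2, CNOT3, CNOT6L, CNOT7, CNOT8, CNOT10 and CNOT11, were chosen by name, and each matched 1 of the 38900 Ensembl gene IDs in the deposited table. These are human retinal pigment epithelial (RPE) cells, an established line immortalised with telomerase. All cultures were held at full confluency for 5 days so that they stopped dividing, and then received fresh medium for 6 hours with 100 nM combretastatin A4 (CA4), a small molecule that binds tubulin and takes microtubules apart, or with the solvent at 0.1% DMSO. Each group has 3 polyA RNA sequencing libraries, and nothing in the labels says that they came from separate cultures, so p-values measure only the spread between these libraries.

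Cells adjust tubulin synthesis to the pool of unassembled tubulin. When that pool rises, TTC5 recognises the first residues of a nascent alpha or beta tubulin chain as it leaves the ribosome, SCAPER is recruited to TTC5, and SCAPER brings in the CCR4-NOT complex, which shortens the poly(A) tail and so starts the decay of the mRNA being translated. In CCR4-NOT, CNOT1 is the scaffold, CNOT2 and CNOT3 form the NOT module, CNOT6 or CNOT6L and CNOT7 or CNOT8 are the nucleases, and CNOT10 with CNOT11 forms the module through which SCAPER docks. The pathway acts on the decay of existing mRNA through proteins that are already present, and RNA levels do not report the activity of those proteins.

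The signal that TTC5 reads is encoded by the first 4 codons of the tubulin mRNA, which stand for methionine, arginine, glutamate and then isoleucine in beta or cysteine in alpha tubulins. The first 30 coding bases of 7 tubulin mRNAs are shown because they encode the residues that TTC5 recognises, with those 4 codons in capitals, 5′ to 3′ on the coding strand, from GENCODE 29 transcripts (GRCh38).
TUBB3: ATGAGGGAGATCgtgcacatccaggccggc
TUBB: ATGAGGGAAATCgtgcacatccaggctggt
TUBB2A: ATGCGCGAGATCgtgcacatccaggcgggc
TUBB4B: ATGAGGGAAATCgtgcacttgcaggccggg
TUBB6: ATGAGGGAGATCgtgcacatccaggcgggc
TUBA1A: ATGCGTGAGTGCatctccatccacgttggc
TUBA4A: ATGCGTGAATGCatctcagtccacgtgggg
The start codon begins at base 89923402 of chromosome 16 (plus strand) in TUBB3, 30720507 of chromosome 6 (plus) in TUBB, 3157463 of chromosome 6 (minus) in TUBB2A, 137241361 of chromosome 9 (plus) in TUBB4B, 12308293 of chromosome 18 (plus) in TUBB6, 49188979 of chromosome 12 (minus) in TUBA1A and 219253858 of chromosome 2 (minus) in TUBA4A. In the 5 beta tubulins shown, exon 1 holds all 4 codons. In TUBA1A and TUBA4A the start codon lies in exon 1 and the fourth codon in exon 2.

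Of 14187 genes with an APPRIS principal transcript and an annotated start codon, 19 begin with these codons in any synonymous spelling. The transcript had to be of level 1, except that genes listed for this work could enter at another principal level. Genes outside the lists without a level 1 transcript were thus not searched. Of the 19, 17 are the alpha and beta tubulins listed for this work, 9 with isoleucine and 8 with cysteine as the fourth residue. The other 2 are TUBAL3 and TUBB8P12, also tubulin genes by name, and neither reached the level needed for testing. Among the 19, 11 were tested and 9 had a limma adjusted p under 0.05, all lower in CA4, where 1.97% of all 13928 tested genes passed as lower, with a median log2 fold change of -1.78 over the 11. The log2 fold changes, CA4 minus DMSO, were -2.73 (SE 0.11) for TUBB3, -1.85 (SE 0.15) for TUBB, -1.76 (SE 0.13) for TUBB2A, -1.78 (SE 0.22) for TUBB4B, -2.66 (SE 0.18) for TUBA1A and -0.88 (SE 0.18) for TUBA4A, all past the threshold. TUBB, TUBB4B, TUBB6 and TUBA4A were chosen for display after their values were seen. TUBB6 had one of -0.51 (SE 0.16) and missed it, with an adjusted p of 0.105 from limma, though DESeq2 called it (0.0169). TUBG1, a gamma tubulin chosen here after its values were seen, starts with a different codon order and was also lower, with a log2 fold change of -0.84 (limma adjusted p = 0.0135).
TUBG1: ATGCCGAGGGAAatcatcaccctacagttg
The capitals again mark its first 4 codons. Codons for arginine, glutamate and isoleucine stand at codons 3 to 5 in TUBG1 and at codons 2 to 4 in the beta tubulins. Whether TTC5 recognises TUBG1 was not tested.

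Values below are normalized counts, the reads of a gene divided by the authors' scaling factor for that library. The libraries held 19524936 to 22538004 recovered reads, 1 read was worth 0.935 to 1.12 normalized counts, and all 10 genes passed the filter of a mean of at least 10 normalized counts. Of the RPE markers, OTX2 (226 to 630.1 normalized counts over the 6 libraries) and MITF (322 to 1085) were present, TTR was listed at 0 in each library, and RLBP1, LRAT, TYR and TYRP1 stayed at or under 5.70. RPE65 (13.5 to 40.8), BEST1 (42.5 to 99.7) and PMEL (8.41 to 22.3) lay between, so 5 of the 10 RPE markers passed the filter. Of these 5, 1 passed the test, OTX2, lower in CA4 (log2 fold change -1.11, adjusted p = 0.0158 in limma), where 1.97% of all tested genes passed as lower. MITF had a log2 fold change of -0.98 (adjusted p = 0.10 in limma and 0.0117 in DESeq2). The epithelial keratins KRT8 (14118 to 16502) and KRT18 (8393 to 14919) were higher than any of these. Their sum was 22511 to 25476 in DMSO and 25978 to 31421 in CA4. Their log2 fold changes were 0.090 and 0.46 (adjusted p = 0.526 and 0.0849 in limma, and 0.0133 for KRT18 in DESeq2). The summed level of the 10 RPE markers was 1131 to 1839 in DMSO and 638 to 1034 in CA4. That of 9 markers of other cell types was 737 to 1069 in DMSO and 1087 to 1935 in CA4, with 0 of its 7 tested genes past the threshold, beside 4.94% of all tested genes. All 7 had a log2 fold change above 0. The endothelial markers PECAM1 (284 to 916) and CDH5 (151 to 576) were the highest of them, with log2 fold changes of 0.74 and 0.64 in limma. For PECAM1 the unadjusted p was 0.0484 in limma (23.0% of all tested genes were under 0.05). Its CA4 libraries lay above DMSO, as in 14.3% of all tested genes. In CA4 replicate 3 PECAM1 and CDH5 stood at 916 and 576, against 357 to 457 and 230 to 354 in the other CA4 libraries. The keratins KRT5 and KRT14 stood at 0 to 1.93 in DMSO replicate 3 and CA4 replicate 1 and at 60.8 to 154 in the other 4 libraries, and the leukocyte marker PTPRC at 2.80 to 10.6. On the first principal component, DMSO replicate 1 (-10.9) lay nearer to the CA4 libraries (17.2 to 43.1) than DMSO replicates 2 and 3 did (-45.4 and -35.4). The second, with 21.3% of the variance, set DMSO replicate 1 (30.2) and CA4 replicate 1 (34.8) apart from the other libraries (-37.7 to 2.99). The part of these shifts in the results was not tested.

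No mRNA of the 10 decay factors passed the test between the groups, and most were measured closely enough to bound the difference. None of the 10 had a limma adjusted p under 0.05, where 4.94% of all 13928 tested genes did, 413 higher and 275 lower in CA4 (279 and 523 with each library scaled to a common total). At an unadjusted p under 0.05 there were 2 of the 10, CNOT7 and CNOT1, both lower in CA4, against 23.0% of all tested genes. On the recovered reads edgeR and DESeq2 also called 0 of the 10, beside 4.62% and 11.6% of all tested genes. With the replicate number as a further term, limma called 1 of the 10, CNOT1 (adjusted p = 0.049), beside 17.2% of all tested genes. On simulated data with 200 of 13928 genes changed 2-fold, a far larger share of DESeq2 calls was false than the 5.36% of limma and edgeR. Such a share depends on how many genes are changed, so it cannot be carried over to the DESeq2 calls given here. How many of those DESeq2 calls are false was not tested. The log2 fold changes ran from -0.34 for SCAPER to 0.20 for CNOT10, with a median of -0.015, beside a median of -0.0082 over all tested genes. The groups did not overlap in 2 of the 10, CNOT7 below and CNOT10 above DMSO, beside 27.7% of all tested genes, 13.4% below and 14.3% above. For 9 of the 10 genes, all but SCAPER, the 95% interval of the fold change lay within 1.5-fold in both directions, as it did for 45.0% of all tested genes. In bulk RNA, fewer cells with an mRNA and less of it per cell cannot be told apart.

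**Figure D1:**
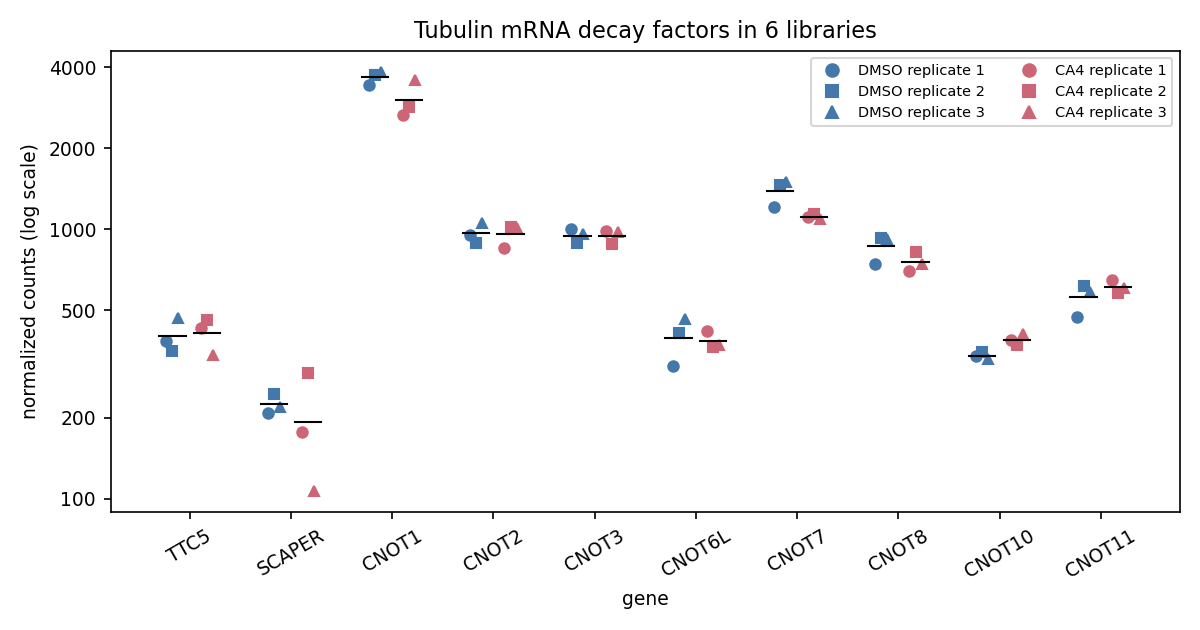
Normalized counts (log scale) of each decay factor in each library, with DMSO in blue, CA4 in red, a symbol for each replicate number and a line at the group mean. CNOT7 is lower in each CA4 library than in any DMSO library, CNOT10 is higher, and SCAPER spreads from 107 to 292 in CA4.

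TTC5 encodes the tetratricopeptide repeat protein that reads the tubulin chain and lies at chr14:20256558-20305994 on the minus strand (GRCh38, GENCODE 29). In replicates 1, 2 and 3 it stood at 385, 352 and 468 normalized counts with DMSO, against 429, 461 and 341 with CA4. The groups overlapped over nearly their whole range, and CA4 replicate 3 held the lowest value of the 6. The means were 402 ± 59.6 with DMSO and 410.4 ± 62.2 with CA4 (SD over 3 libraries each), which limma put at a log2 fold change of 0.029 (SE 0.16, adjusted p = 0.941). The 95% interval ran from -0.35 to 0.41 on the log2 scale, or from 0.784-fold to 1.33-fold. Its sign turned with the libraries used, between -0.061 and 0.16 on the log2 scale with 1 left out. With all libraries set to a common total or a common 75th percentile it was -0.073 or -0.0039, beside medians of -0.11 and -0.041 over all tested genes.

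SCAPER, which links TTC5 to CCR4-NOT and was first described as a cyclin A-associated protein of the endoplasmic reticulum, lies at chr15:76347904-76905444 on the minus strand. With DMSO its libraries 1, 2 and 3 stood at 209, 245 and 219 normalized counts, a narrow range. With CA4 they stood at 177, 292 and 107, so that CA4 held both the highest and the lowest library. Behind these values stood 216, 262 and 231 recovered reads with DMSO and 183, 260 and 96 with CA4. The coefficient of variation was 8.32% in DMSO and 48.6% in CA4. The log2 fold change was -0.34 (SE 0.33, adjusted p = 0.591 in limma), and its 95% interval ran from -1.11 to 0.43, which takes in a fall of 2-fold. CA4 replicate 3 decided the sign, because without it the log2 fold change was 0.022, and leaving out CA4 replicate 2 gave -0.70 (adjusted p = 0.17 in limma). SCAPER was thus the least precisely measured of the 10 genes.

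CNOT1, the scaffold on which the other subunits assemble, lies at chr16:58519951-58629886 on the minus strand. In replicates 1, 2 and 3 it stood at 3431, 3735 and 3848 normalized counts with DMSO, against 2663, 2845 and 3583 with CA4. CA4 replicates 1 and 2 lay below every DMSO library, and CA4 replicate 3 lay between DMSO replicates 1 and 2. The means were 3671 ± 215 and 3030.5 ± 487 (SD over 3 libraries each), which limma put at a log2 fold change of -0.29 (SE 0.12, unadjusted p = 0.0465, adjusted p = 0.21). Without CA4 replicate 3 it was -0.41 (adjusted p = 0.107 in limma), and leaving out CA4 replicate 1 gave -0.20 (adjusted p = 0.466). With the replicate number as a further term, limma called CNOT1 (adjusted p = 0.049), beside 17.2% of all tested genes. Other GENCODE 29 genes cover 11.2% of the exon bases of CNOT1, mostly SETD6 on the opposite strand, which had 235 to 262 normalized counts, a small part of the CNOT1 level.

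CNOT2 and CNOT3, the partners of the NOT module that stabilises the complex and helps it bind targets, lie at chr12:70242994-70354993 and chr19:54137717-54155708, both on the plus strand. CNOT2 stood at 950.3, 893 and 1055 normalized counts in replicates 1, 2 and 3 with DMSO, against 851, 1023 and 1014 with CA4. CNOT3 stood at 999, 889 and 957 with DMSO, against 982, 881 and 979.7 with CA4. Both genes held nearly the same mean in the 2 groups, and their libraries overlapped. The log2 fold changes were -0.0062 (SE 0.11, limma adjusted p = 0.983) for CNOT2 and -0.0014 (SE 0.094, limma adjusted p = 0.995) for CNOT3. The interval for CNOT3, from -0.22 to 0.22, was the narrowest of the 10 genes, and the sign of both genes turned when single libraries were left out. Setting all libraries to a common total gave log2 fold changes of -0.11 for CNOT2 and -0.10 for CNOT3, beside a median of -0.11 over all tested genes under that scaling.

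CNOT7 and CNOT8 are paralogs of yeast Caf1, nucleases that bind CNOT1 directly and occupy the same place in the complex. CNOT7, at chr8:17224964-17246878 on the minus strand, stood at 1215, 1464 and 1496 normalized counts in replicates 1, 2 and 3 with DMSO, against 1114, 1138 and 1094.5 with CA4. The CA4 libraries lay close together and all below DMSO replicate 1, the lowest of its group. The means were 1391.5 ± 154 and 1115.5 ± 21.6 (SD, n = 3 each), which limma put at a log2 fold change of -0.31 (SE 0.10, unadjusted p = 0.017). The adjusted p was 0.125 in limma, 0.121 in edgeR and 0.0757 in DESeq2, so CNOT7 missed the threshold in each of these. Without DMSO replicate 1 limma called CNOT7 (log2 fold change -0.41, adjusted p = 0.0415), in a fit that called 994 genes over all, against 688. Without DMSO replicate 3 its log2 fold change was -0.26 with an adjusted p of 0.315 in limma, in a fit that called 81 genes. CNOT8, at chr5:154857553-154876793 on the plus strand, stood at 745, 927 and 923 with DMSO, against 703, 822 and 742 with CA4. Its groups overlapped, and its log2 fold change was -0.19 (SE 0.12, adjusted p = 0.401 in limma).

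The other nuclease position is filled by CNOT6 or CNOT6L, paralogs of yeast Ccr4. CNOT6L, at chr4:77713387-77819615 on the minus strand, stood at 310.0, 411 and 466 normalized counts in replicates 1, 2 and 3 with DMSO, against 418, 365 and 371 with CA4. The CA4 libraries fell inside the DMSO range, and the log2 fold change was -0.023 (SE 0.17, adjusted p = 0.954 in limma). CNOT6 stood at 1042, 923 and 1091 with DMSO, against 747, 1006.5 and 883 with CA4, a log2 fold change of -0.22 (limma adjusted p = 0.367). CNOT6LP1, a pseudogene that shares 7.23% of the 50-base words of the CNOT6L transcript, had 0 or 1 read in each library.

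Ratios within a library do not depend on its scaling factor. The ratios below use counts not divided by transcript length, so they do not rank the paralogs. Per kb of principal transcript, CNOT8 lay above CNOT7 (319 against 201 in DMSO and 279 against 161 in CA4). The ratio of CNOT7 to CNOT8 normalized counts was 1.63, 1.58 and 1.62 with DMSO (replicates 1, 2 and 3) and 1.59, 1.38 and 1.47 with CA4. The 3 DMSO ratios were tight, and 2 of the 3 CA4 ratios lay below them. On the log2 scale the ratio averaged 0.69 ± 0.025 with DMSO and 0.56 ± 0.099 with CA4 (SD over 3 libraries each), a difference of -0.12 (two-sided exact permutation p = 0.2, where 0.1 is the smallest that 3 libraries against 3 allow). The ratio of CNOT6L to CNOT6 was 0.298, 0.446 and 0.427 with DMSO and 0.56, 0.362 and 0.42 with CA4. Replicate 1 held the lowest ratio in DMSO and the highest in CA4. The difference was 0.20 on the log2 scale (two-sided exact permutation p = 0.6), and it was 0.013 without DMSO replicate 1 and 0.023 without CA4 replicate 1.

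**Figure D2:**
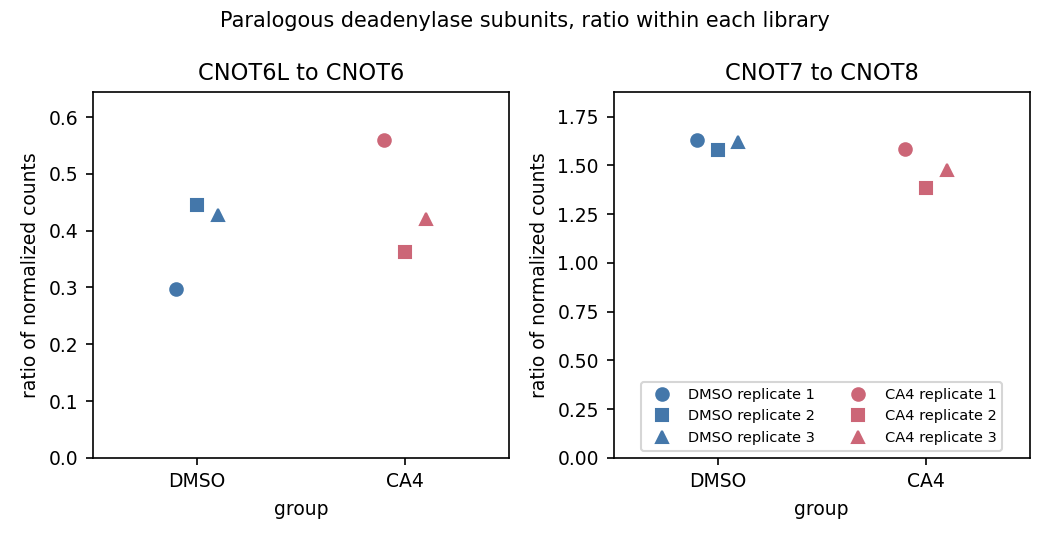
Ratio of normalized counts of CNOT6L to CNOT6 (left) and of CNOT7 to CNOT8 (right) in each of the 3 DMSO and 3 CA4 libraries, each point 1 library, on axes that start at 0. The counts are not divided by transcript length. CNOT7 exceeds CNOT8 in every library, from 1.38 to 1.63 times, while CNOT6L stays below CNOT6, from 0.298 to 0.56 times. Per kb of principal transcript, CNOT8 exceeds CNOT7 in every library (259 to 342 against 158 to 216).

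CNOT10 and CNOT11 form the module on the amino-terminal part of CNOT1 to which SCAPER docks through CNOT11. CNOT10, at chr3:32685145-32773875 on the plus strand, stood at 337, 349.7 and 329 normalized counts in replicates 1, 2 and 3 with DMSO, against 387, 370.3 and 408 with CA4. Each CA4 library lay above all DMSO libraries. The means were 338 ± 10.6 and 388 ± 18.9 (SD over 3 libraries each), which limma put at a log2 fold change of 0.20 (SE 0.11, adjusted p = 0.326), and 0.096 with all libraries set to a common total. CNOT11, at chr2:101252802-101270316 on the plus strand, stood at 473, 618 and 585 with DMSO, against 649, 581 and 605 with CA4. Its groups overlapped, with DMSO replicate 1 lowest, and its log2 fold change was 0.14 (SE 0.13, adjusted p = 0.566 in limma). Without DMSO replicate 1 it was 0.024.

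**Figure D3:**
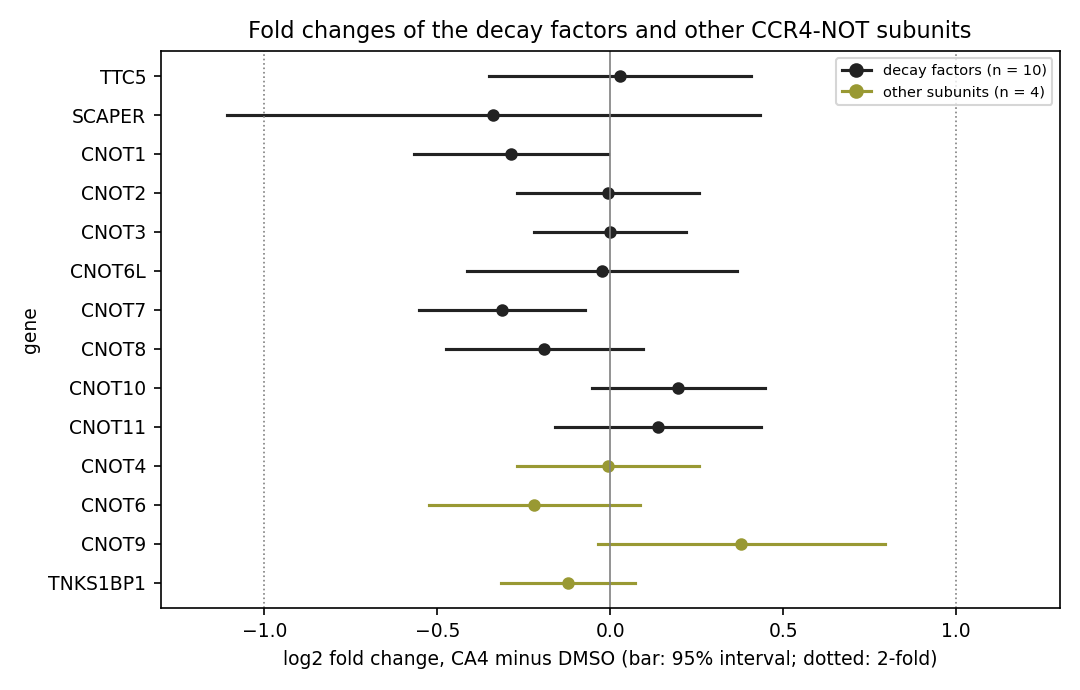
Log2 fold change, CA4 minus DMSO, from limma with 95% intervals, for the 10 decay factors (black) and 4 other genes listed as CCR4-NOT subunits (olive), with dotted lines at 2-fold. The interval of SCAPER alone crosses a 2-fold line, and those of CNOT1 and CNOT7 stay below 0.

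The order of the mRNA levels within the complex was compared per kilobase of the principal transcript in GENCODE 29, since longer transcripts give more reads. In DMSO, CNOT1 was highest of the 10 at 433 ± 25.4 normalized counts per kb (SD, n = 3), and CNOT8 at 319 ± 38.5 and CNOT2 at 294 ± 25.1 came next. CNOT3 (230.3 ± 13.4), CNOT11 (215 ± 29.2) and CNOT7 (201 ± 22.2) followed as neighbours with overlapping libraries. CNOT10 (120.2 ± 3.77), TTC5 (84.1 ± 12.5), CNOT6L (44.7 ± 8.94) and SCAPER (44.6 ± 3.71) were the lowest. In DMSO no libraries overlapped between CNOT1 and CNOT8, CNOT2 and CNOT3, CNOT7 and CNOT10, CNOT10 and TTC5, or TTC5 and CNOT6L, whereas CNOT8 and CNOT2, and CNOT6L and SCAPER, could not be ordered. TTC5 thus lay below 7 of the 8 CCR4-NOT subunits among the 10, and SCAPER, with CNOT6L, below the rest. The order depends on the length used. With merged exons of all transcripts, CNOT2 moved to 69.0 per kb, rank 7 of the 10 in place of rank 3, CNOT11 moved to rank 3 and TTC5 (41.4) fell below CNOT6L (42.3), while CNOT1 stayed highest and SCAPER lowest.

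**Figure D4:**
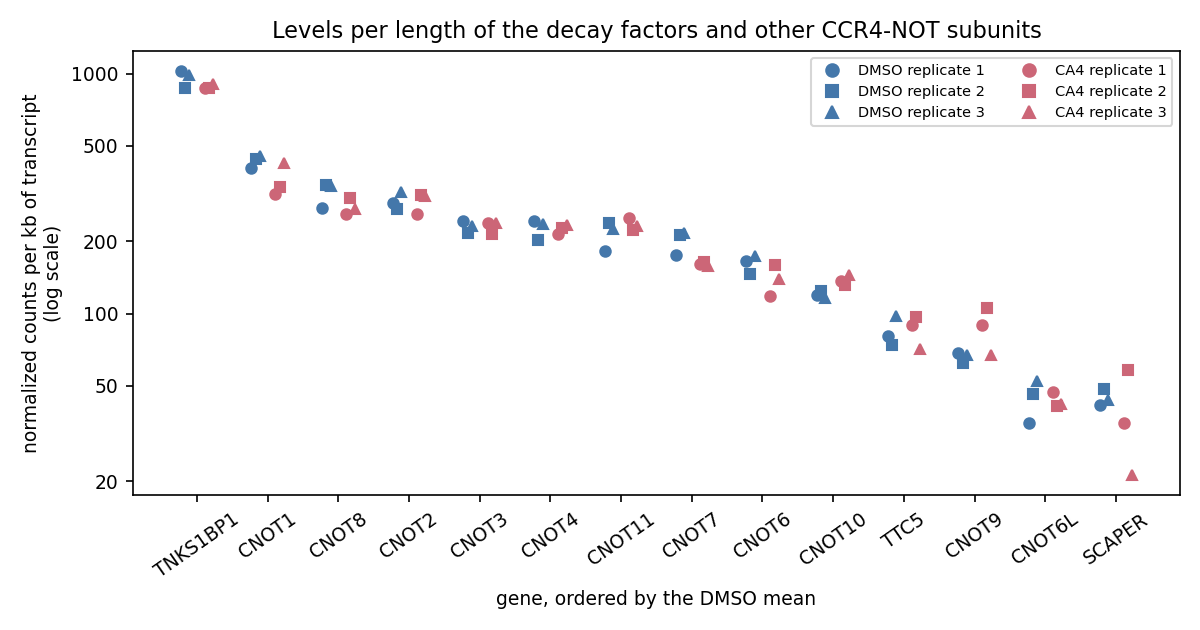
Normalized counts per kb of principal transcript (log scale) in each library for the 10 decay factors and 4 other genes listed as CCR4-NOT subunits, ordered by the DMSO mean, with DMSO in blue and CA4 in red. TNKS1BP1 and CNOT1 stand highest, and TTC5, CNOT9, CNOT6L and SCAPER lowest, in both groups.

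Over both groups, the coefficient of variation between libraries ran from 1.94% for CNOT7 in CA4 to 48.6% for SCAPER in CA4.

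Reads of neighbouring or copied genes could bear on a few of these values, which was not tested. In GENCODE 29 no exon base of SCAPER or CNOT6L lies in another gene. For TTC5, 10.4% of the exon bases do, most in the noncoding AL356019.2 on the same strand, and for CNOT3, 7.97% do, in LENG1 on the opposite strand, which had at most 6.76 normalized counts. For CNOT8, 4.15% lie in FAXDC2 on the opposite strand, which ran from 125 to 423 with DMSO and from 42.4 to 98.7 with CA4, and its part in the CNOT8 values was not tested. No 50-base word was shared between the paralogs CNOT7 and CNOT8 or CNOT6 and CNOT6L. CNOT7 shared 2.54% of its words with other genes, most of them with the pseudogene CNOT7P1, which had at most 1 read. A further 2.22% of the CNOT7 exon bases lie in VPS37A on the opposite strand, which ran from 641 to 776 with DMSO and from 765 to 999.8 with CA4.

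Genes with the most similar pattern were taken, as a description, by Pearson's correlation of log2 values over the 6 libraries among 11688 genes averaging 50 or more normalized counts. For TTC5 these were CARM1 (r = 0.989), ELP3 (r = 0.982) and CPM (r = 0.980). For SCAPER they were DPP4 (r = 0.996), PRKX (r = 0.996) and NHERF2 (r = 0.984), each of which also had its lowest value in CA4 replicate 3 and its highest in CA4 replicate 2. For CNOT1 they were LRP11 (r = 0.996), ZCCHC14 (r = 0.992) and TMTC3 (r = 0.990). With 6 points and so many genes, no p is given for these values.

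The 4 genes outside the 10 that were listed as CCR4-NOT subunits did not pass the threshold either, beside 4.94% of all tested genes that did. CNOT9, which binds adaptor proteins, stood at 280.1, 253 and 273 normalized counts in replicates 1, 2 and 3 with DMSO, against 364, 429.7 and 273 with CA4. CA4 replicates 1 and 2 were above the DMSO libraries and CA4 replicate 3 was within them, and the log2 fold change was 0.38 (SE 0.18, adjusted p = 0.259 in limma). The log2 fold changes of CNOT4, a ubiquitin ligase, CNOT6 and TNKS1BP1, a protein found with the complex, were -0.0064, -0.22 and -0.12 (limma adjusted p from 0.367 to 0.982). At an unadjusted p under 0.05 there were 0 of these 4, against 23.0% of all tested genes, and edgeR and DESeq2 called 0, beside 4.62% and 11.6%.

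Among 18 genes for proteins that bring CCR4-NOT to mRNAs, 17 were tested and 2 passed, both higher in CA4, beside 2.97% of all tested genes that passed as higher. At an unadjusted p under 0.05 there were 8 of the 17, against 23.0% of all tested genes. The 2 that passed the adjusted threshold were the SAMD4 genes, whose proteins are homologs of Drosophila Smaug, an RNA-binding repressor that recruits CCR4-NOT. SAMD4A stood at 1122, 867 and 1019 normalized counts in replicates 1, 2 and 3 with DMSO, against 2062.5, 2091 and 1860.2 with CA4. Every CA4 library was well above every DMSO library, and the log2 fold change was 1.01 (SE 0.11, adjusted p = 0.00835 in limma). Leaving out any 1 of the 6 libraries kept its call (adjusted p from 0.00571 to 0.0447). SAMD4B stood at 1643, 1698 and 1419 with DMSO, against 2523.5, 2062 and 2403 with CA4, without overlap. Its mean rose from 1586 ± 148 to 2330 ± 239 (SD over 3 libraries each), which limma put at a log2 fold change of 0.55 (SE 0.11, adjusted p = 0.0363). That call was lost without DMSO replicate 2 (adjusted p = 0.0907), DMSO replicate 3 (0.129), CA4 replicate 1 (0.119) or CA4 replicate 3 (0.125), under quantile normalization (0.0502), with the same total (0.0638) and without the variance trend (0.0939). With 1 library left out the log2 fold change of SAMD4B ran from 0.47 to 0.64. The fits without those libraries called 81 to 156 genes over all, against 688. TOB1, an antiproliferative adaptor of CNOT7 and CNOT8, stood at 672, 796 and 719.8 with DMSO, against 543, 535 and 418 with CA4, all below DMSO, with a log2 fold change of -0.55 that narrowly missed the threshold (limma adjusted p = 0.0602) and passed with the same total (0.0435) and in DESeq2 (0.00914). On the recovered reads edgeR called 2 and DESeq2 5 of the 17, beside 4.62% and 11.6% of all tested genes. The median log2 fold change of the 17 was 0.031, and members lay on both sides of 0.

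Of 11 other deadenylases and poly(A)-binding factors, 10 were tested and 1 passed, higher in CA4, beside 2.97% of all tested genes that did so. At an unadjusted p under 0.05 there were 4 of the 10, against 23.0%. LARP1, which binds mRNAs of the translation machinery and protects their poly(A) tails, stood at 4140, 3921 and 4214 normalized counts with DMSO, against 5260, 5465 and 5193 with CA4. Each CA4 library was higher than each DMSO library, and the mean rose from 4092 ± 152 to 5306 ± 142 (SD, n = 3 each), which limma put at a log2 fold change of 0.38 (SE 0.070, adjusted p = 0.0296). Its call was lost in 5 of the 6 fits without a library, all but the one without DMSO replicate 1 (adjusted p from 0.0385 to 0.111), and with the same total (0.0706), quantile normalization (0.0738) or no variance trend (0.0945). With 1 library left out its log2 fold change stayed between 0.34 and 0.40, while the number of genes called over all ran from 81 to 994, against 688. PAN2, the nuclease of the other main deadenylase, had a log2 fold change of -0.47 (limma adjusted p = 0.128), and PAIP1, a partner of poly(A)-binding protein, one of -0.33 (limma adjusted p = 0.162, and 0.0455 without DMSO replicate 1). PARN was not analysed here.

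Genes for the steps after deadenylation were not called in limma. Of 18 genes for decapping and 5′-to-3′ decay, 0 passed in limma and 0 in edgeR, 3 had an unadjusted p under 0.05 (23.0% of all tested genes did), and DESeq2 called 2 (11.6% of all), DCP1A and EDC4. Those with the smallest p, DCP1A and EDC4 of the decapping complex and LSM1 of the ring that activates it, were at 0.53, 0.38 and 0.35 on the log2 scale (adjusted p = 0.0582, 0.0745 and 0.105 in limma), and in each the CA4 libraries lay above the DMSO libraries. Of 17 genes listed for the exosome, the Ski complex and related nucleases, 0 passed in limma and 0 in edgeR, 3 had an unadjusted p under 0.05 and DESeq2 called 1, shares no higher than the 23.0% and 11.6% of all tested genes. The 3 were DIS3L, DIS3 and DIS3L2, of which DIS3L2 works apart from the exosome. DIS3L, the cytoplasmic exosome nuclease, had a log2 fold change of -0.58 (limma adjusted p = 0.0539) and was called with the same total (0.0369), the same 75th percentile (0.0491), a higher filter (a mean of 50, 0.0459) and in DESeq2 (0.00978). DIS3, its nuclear counterpart, had one of 0.29 and DIS3L2 one of -0.33 (adjusted p = 0.13 and 0.185 in limma). SKIV2L, the Ski helicase, was listed at 0 in CA4 replicate 3 and at 324 and 397 in the other 2 CA4 libraries, so its fitted value is not given.

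**Figure D5:**
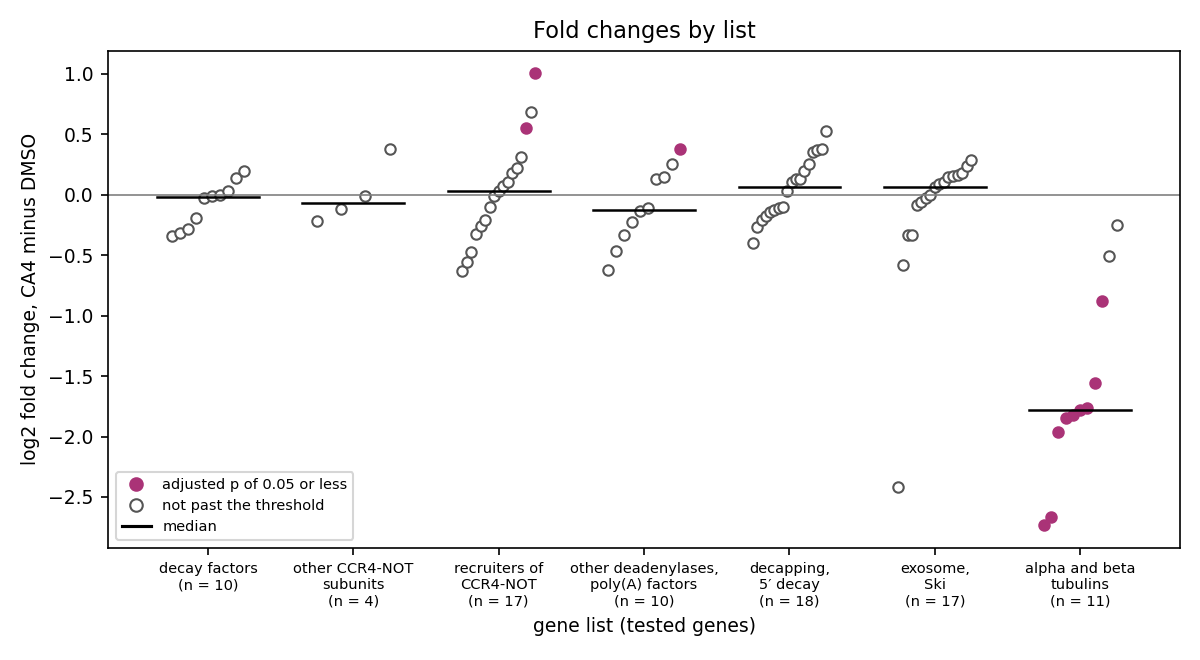
Log2 fold change, CA4 minus DMSO, of each tested gene of 7 lists, with filled points past an adjusted p of 0.05 in limma, open points not past it and a line at each median. The decay factors and the other decay lists centre near 0 with 3 filled points in all, and the alpha and beta tubulins have a median of -1.78 with 9 of 11 filled. The lowest open point of the exosome and Ski list is SKIV2L, set by a listed 0 in 1 library.

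Set beside their targets, the 9 tubulins that passed had log2 fold changes from -2.73 to -0.88. The lower ends of the 95% intervals of 9 of the 10 decay factors lay between -0.57 and -0.054, and that of SCAPER at -1.11. The difference between the decay factors and the tubulins was not tested.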

How the data were processed

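Gene expression was measured by polyA RNA sequencing in 3 DMSO and 3 CA4 libraries, grouped by their titles. The deposited values are a signal, gene counts that the authors divided by a scaling factor of each library. The submitters' processing notes name Trim Galore 0.6.6, FastQC 0.12.1, Salmon 1.8.0, STAR 2.7.9a, DESeq2 1.44.0 and GRCh38, without roles, and the annotation release and use of strand are not given in the sources used here. Since 100% of values were whole multiples of 1 step (tolerance 0.01), whole reads were recovered, and they may be rounded estimates. Overlapping and antisense genes could share reads.

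The 13928 genes averaging 10 or more normalized counts were tested with limma 3.58.1 in R 4.3.3 on log2(normalized count + 1), with treatment as the only term and a mean trend. This scale understates changes of low genes. Two-sided p-values were adjusted by Benjamini-Hochberg over all tested genes, with 0.05 as the threshold. Intervals are limma's 95% intervals, not adjusted for the number of genes. edgeR 4.0.16 and DESeq2 1.42.0 on the recovered reads were alternatives, as were pseudocounts of 0.1 and 5, other filters and scalings, no variance trend, a replicate block and leaving out each library. Tested on simulated data for this comparison (13928 genes, 200 of them changed 2-fold), limma and edgeR each recovered 53% of the changed genes with 5.36% of calls false, DESeq2 65% with 29.0% false, and limma with the block 51.5% with 10.4% false. The simulated reads held no effect of the replicate number. A listed 0 allows up to 3 reads, counting error only.

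The 10 genes and all lists were chosen with earlier results of these data known. All 10 genes, the other genes listed as CCR4-NOT subunits and up to 3 genes of each further list with the smallest adjusted p are named, as are the cell type markers and neighbouring genes where a result touches them, and names chosen after their values were seen are marked. The list by first codons was meant to come from a protein table and was made from GENCODE 29 transcripts instead.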

Additional observations from a re-analysis of the deposited data

How the results depend on the processing

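The count of decay factors past the threshold was 0 and stayed 0 in 15 of the 17 alternatives. It was 1 with the replicate block (CNOT1, limma adjusted p = 0.049) and 1 without DMSO replicate 1 (CNOT7), and so ran from 0 to 1 over the 6 fits without a library. Their median log2 fold change of -0.015 was -0.12 with the same total, a scaling that moved the median of all tested genes to -0.11, and it ran from -0.10 to 0.033 with 1 library left out. Against 688 genes past the threshold over all genes, there were 1613 in DESeq2, 103 without the variance trend, 2397 with the replicate block and from 81 to 994 with 1 library left out. Fits without DMSO replicate 2 or 3 or without CA4 replicate 1 or 3 gave 100, 81, 156 and 150, those without DMSO replicate 1 or CA4 replicate 2 gave 994 and 503, and the cause was not tested.

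The replicate numbers were not treated as pairs. The titles give each library a replicate number but name no shared culture. The correlations of deviations between same-numbered libraries were 0.202, 0.159 and 0.0588, and those between other numbers ran from -0.214 to 0.0741. Whether same-numbered libraries belong together was not tested. CA4 replicate 3 correlated best with DMSO replicate 2 (0.0741), the other 5 libraries with their own number. The replicate block kept all 688 calls of the main fit and raised the share of all genes called to 17.2%. It called 7 of the 17 tested recruiters (TOB1 at 0.0221), 2 of 10 other deadenylases, 2 of 18 decapping genes (DCP1A 0.0145, EDC4 0.0150), 2 of 17 exosome genes (DIS3L 0.0156, DIS3 0.0333), 10 of 11 tubulins (TUBB6 0.0116) and MITF (0.00375). The ratio differences kept their direction in each alternative, from -0.17 to -0.074 for CNOT7 to CNOT8 and from 0.013 to 0.34 for CNOT6L to CNOT6. As paired differences the exact sign-flip p was 0.25 and 1.

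Small fold changes turned sign without being called. TTC5 was -0.0039 with the same 75th percentile and -0.073 with the same total, scalings that moved the median of all tested genes to -0.041 and -0.11, and ran from -0.061 to 0.16 with 1 library left out, below 0 without DMSO replicate 2 (-0.061), CA4 replicate 1 (-0.0092) or CA4 replicate 2 (-0.061). SCAPER ran from -0.70 to 0.022 and was above 0 without CA4 replicate 3. CNOT2 ran from -0.061 to 0.080, above 0 without DMSO replicate 3 (0.059) or CA4 replicate 1. CNOT3 was 8.84e-04 in edgeR and ran from -0.047 to 0.050, above 0 without DMSO replicate 1 (0.037), DMSO replicate 3 (0.0061) or CA4 replicate 2. CNOT6L was 0.025 under quantile normalization and ran from -0.19 to 0.10, above 0 without DMSO replicate 2 (0.014), DMSO replicate 3, CA4 replicate 2 (0.014) or CA4 replicate 3 (0.0012). CNOT4 was 0.030 under quantile normalization and ran from -0.087 to 0.043, above 0 without DMSO replicate 1, DMSO replicate 3 (0.025) or CA4 replicate 1 (0.027). The length used for levels per kb was an alternative chosen after seeing the data.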
